A study of Mus musculus with 60 samples.

Results

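The 9 genes described here are the neighbours of Tbr1 on mouse chromosome 2: Rbms1, Tank and Psmd14 on one side, and Slc4a10, Dpp4, Fap, Ifih1, Gca and Kcnh7 on the other. They were chosen by symbol, from the rows of the deposited table whose Ensembl identifier carries one of these names, and all 9 were found among its 18088 genes. All 9 also passed the filter on low values that left 17781 genes for testing. The only measured property the choice uses is a row in that table, but the names were drawn up with earlier results of these data known. The counts of genes past a threshold given below are therefore descriptions and no independent support.

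RNA was sequenced from prefrontal cortex of C57BL/6J mice at postnatal day 25. The animals were wild type (WT) or carried 1 K228E copy of Tbr1 (HT, heterozygous), and all of them had received vehicle, fluoxetine (a serotonin reuptake inhibitor) or lithium through the milk of the mother for 3 weeks, from day 3 to day 24. Genotype, treatment and sex make 12 groups of 5 mice, so each comparison of HT with WT within a treatment sets 10 mice against 10. The sources used here do not say how the K228E allele was made, how often the line was crossed to C57BL/6J, or which mice were littermates. The p-values therefore reflect the spread among these libraries and nothing wider.

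Tbr1 encodes a transcription factor of the T-box family that early-born neurons of the cortex, above all those of layer 6, need for their identity. Genes next to an altered gene are a special case in any mouse line: they can answer to the altered protein like genes elsewhere, and they also stay on the same piece of chromosome as the altered allele through the crosses. Each HT mouse here carries both the K228E allele and the sequence around it, and the gene-level values do not tell the alleles apart. A response to Tbr1 and an influence of linked sequence therefore cannot be told apart in this design. What the data do give is the size of the difference at each distance and whether it is alike under 3 treatments that share no library.

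In the GENCODE annotation of GRCm38, Tbr1 (ENSMUSG00000035033) spans 61802930 to 61814114 of chromosome 2 on the plus strand. Psmd14, which encodes the deubiquitinase of the proteasome lid, ends 2553 bases before it, and its own start site is at -91.2 kb from that of Tbr1. Tank, an adaptor of TBK1 signalling, starts at -224.3 kb and Rbms1, a protein that binds RNA and single-stranded DNA, at -839.7 kb. After Tbr1 come Slc4a10, a sodium-driven bicarbonate transporter of neurons, with its start 243.5 kb away, and Dpp4, a dipeptidyl peptidase of the cell surface, at 609.3 kb. Fap, a close relative of Dpp4 known from activated fibroblasts, starts at 771.1 kb. Ifih1, the cytosolic double-stranded RNA sensor MDA5, starts at 843.3 kb. Gca, the penta-EF-hand calcium-binding protein grancalcin, starts at 861.4 kb and Kcnh7, an ERG-type potassium channel, at 1381.4 kb. Slc4a10 and Dpp4 lie tail to tail with 3342 bases between them. Ifih1 and Gca lie head to head, with 18029 bases between their starts. The ends of Gca and Kcnh7 overlap by 696 bases on opposite strands, so 20.3% of the 31-base words of Gca transcripts also occur in reverse in transcripts of other genes, against 3.22% for Dpp4. The library kit keeps strand, per the labels, and the strand setting of the counting is not given in the sources used here. Although Dpp4 and Fap are relatives, none of the 31-base words of Dpp4 was found on the same strand of another gene.

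Promoter windows were available for 8 of the 9 genes in the RefSeq table (GRCm38.p6), with none for Fap. The stretches of 250 bases before a RefSeq start site are shown for 3 genes that were higher in HT mice in the test below, so that a reader can compare them. The stretch shown for Slc4a10 runs past its GENCODE start at 62046462, which gave the distance above. Letters in capitals mark CpG dinucleotides, the substrate of DNA methylation.
Slc4a10, chr2:62046265-62046514, plus strand: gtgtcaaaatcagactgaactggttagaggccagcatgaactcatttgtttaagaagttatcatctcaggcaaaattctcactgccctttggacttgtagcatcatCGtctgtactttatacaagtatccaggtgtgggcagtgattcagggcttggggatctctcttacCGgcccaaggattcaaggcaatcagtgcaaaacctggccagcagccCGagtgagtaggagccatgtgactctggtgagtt
Dpp4, chr2:62412232-62412481, minus strand: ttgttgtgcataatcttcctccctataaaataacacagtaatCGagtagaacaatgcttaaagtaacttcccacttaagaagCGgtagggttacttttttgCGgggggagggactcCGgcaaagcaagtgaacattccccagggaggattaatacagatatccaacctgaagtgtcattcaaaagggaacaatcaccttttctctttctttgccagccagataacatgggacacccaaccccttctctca
Ifih1, chr2:62646256-62646505, minus strand: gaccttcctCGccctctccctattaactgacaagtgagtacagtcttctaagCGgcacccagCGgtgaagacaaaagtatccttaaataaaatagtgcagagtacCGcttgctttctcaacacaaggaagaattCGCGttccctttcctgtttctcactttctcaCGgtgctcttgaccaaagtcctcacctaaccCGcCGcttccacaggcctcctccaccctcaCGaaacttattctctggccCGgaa

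The 3 promoters differed in base composition. The Slc4a10 stretch shown held 3 CpG dinucleotides, that of Dpp4 held 4 and that of Ifih1 held 11, while the median of all 32851 promoters in the RefSeq table was 6.0. Another Slc4a10 stretch in the same source, chr2:62147628-62147877 and not shown, held 2. The T-box sequence GGTGTGA, read on both strands (TCACACC on the other) over the full window of 300 bases, was in none of the 13 windows of the 8 genes. It was in 1307 of all 32851 windows, or 3.98%. No match says only that these letters are not in these windows.

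The levels of the 9 genes covered a wide range. Per kb of exon, Slc4a10 had the highest mean over the 60 libraries (1124 normalised reads per kb), followed by Psmd14 (611.8) and Kcnh7 (301.2). Tank (116.1), Rbms1 (106.9) and Gca (95.7) came next, and Dpp4 (35.1), Ifih1 (15.4) and Fap (13.8) were the lowest. Tbr1 stood at 660.3 on the same scale. The coefficient of variation over all libraries was 10.3% for Psmd14 and for Slc4a10, 12.4% for Rbms1 and 13.9% for Gca. It was 14.4% for Ifih1, 15.5% for Tank, 17.98% for Kcnh7, 23.8% for Fap and 26.5% for Dpp4. In the order of levels per kb, Tank and Rbms1, Rbms1 and Gca, and Ifih1 and Fap were neighbours that differed by less than the spread over libraries.

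The 10 vehicle males stood apart from the other libraries for several of the genes. Tank had a mean of 927.0 normalised reads in WT and 934.4 in HT vehicle males, and the other 10 groups had means from 604.2 to 692.3. Slc4a10, Rbms1 and Gca also had their highest means in the vehicle males of both genotypes. For Kcnh7 the mean of WT vehicle males (4824) was below that of WT fluoxetine females (5106), and for Psmd14 it (1797) was close to that of WT fluoxetine males (1790). Since these libraries weigh on several genes, the comparison that follows is given with and without these 10 libraries.

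**Figure D1:**
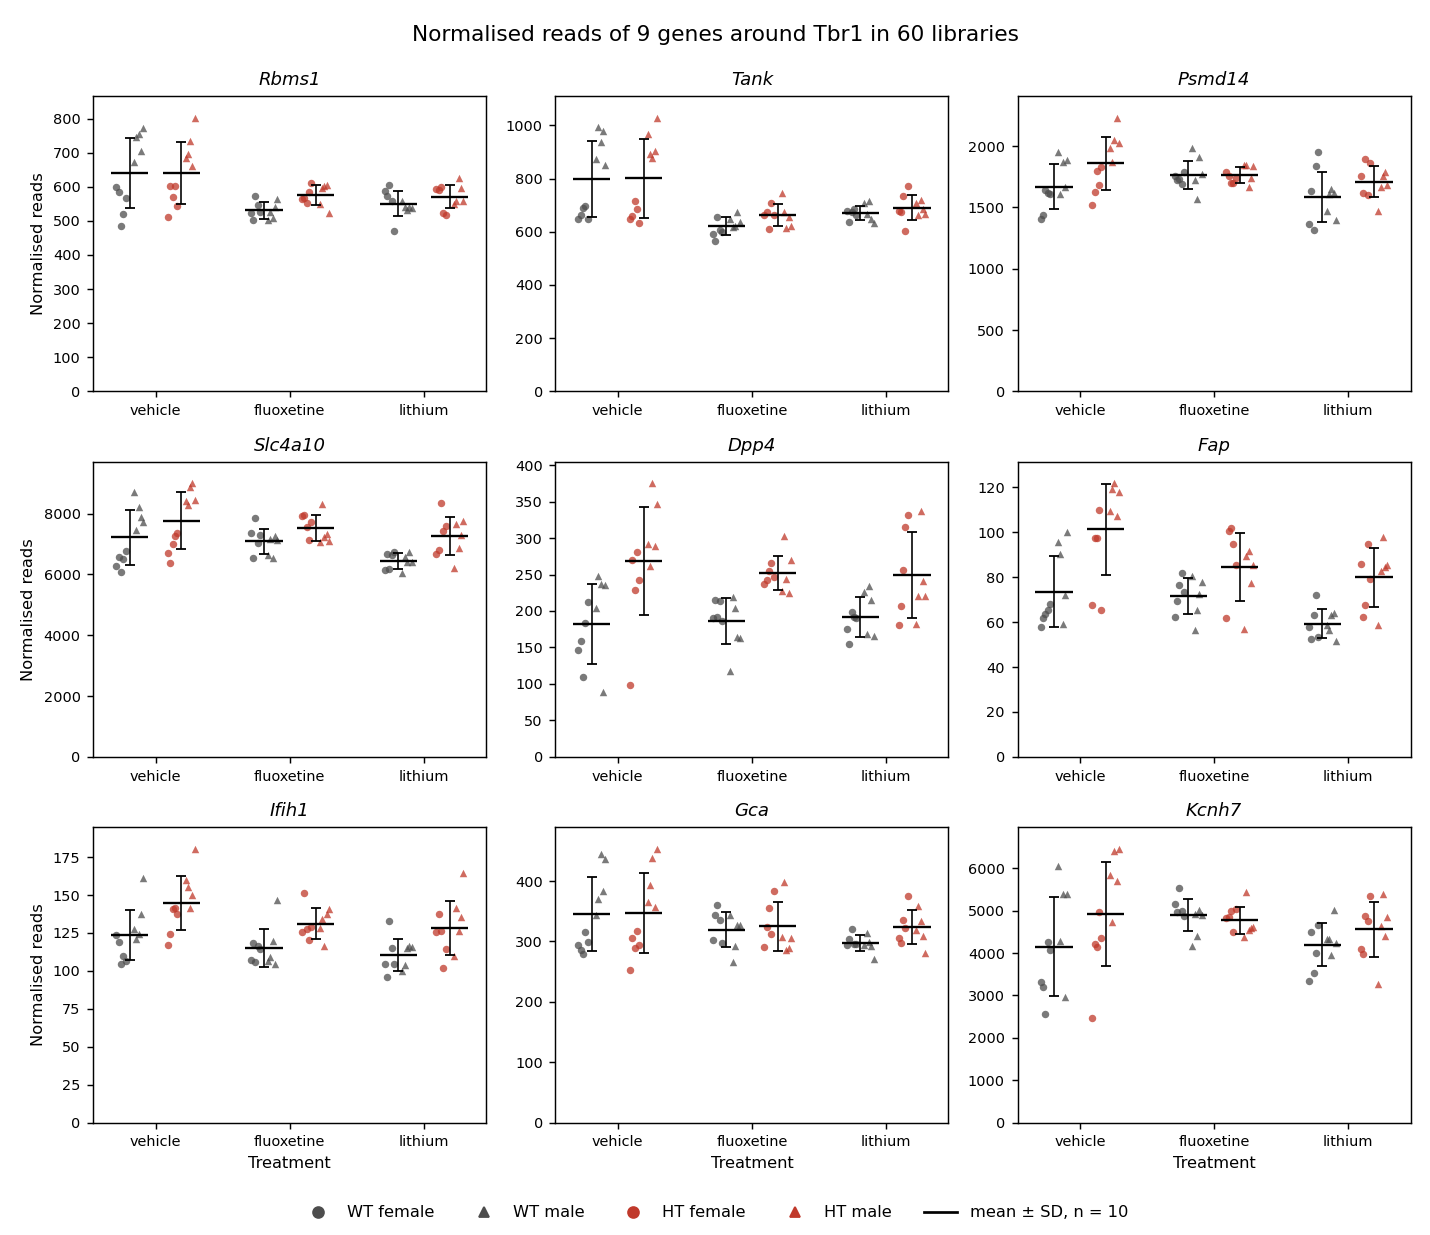
Normalised reads (y axis, from 0) of the 9 genes in each of the 60 libraries by treatment (x axis); circles are females, triangles males, grey WT and red HT, and black bars give the mean and SD of 10 libraries. HT points sit above most WT points for Dpp4, Fap and Ifih1 under each treatment, while those of Gca and Tank overlap widely, and vehicle males run high for Tank, Rbms1 and Slc4a10 in both genotypes.

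Averaged over the 3 treatments (30 HT against 30 WT mice), 4 of the 9 neighbours passed the test, all higher in HT mice. These were Dpp4, Fap, Ifih1 and Slc4a10, which follow each other among the tested genes on the same side of Tbr1. In the same comparison 1.21% of all 17781 genes passed (215 genes), 0.692% being higher and 0.517% lower. All 9 neighbours had a positive difference, from 0.05 to 0.45 in log2(value + 1), with a median of 0.11 against -0.00075 over all genes. Without the vehicle males the same 4 genes passed, at 0.40 for Dpp4, 0.34 for Fap, 0.20 for Ifih1 and 0.12 for Slc4a10, with 0.219% of all genes called (39 genes). The test is limma's moderated test over all kept genes, two-sided, with Benjamini-Hochberg adjustment and a threshold of 0.05 on the adjusted p.

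Dpp4, which cuts dipeptides from peptides such as incretins and chemokines, was measured under vehicle at 88.6, 193.6 and 247.6 normalised reads in WT mice (lowest, median and highest of 10). HT mice under vehicle had 98.5, 275.3 and 374.8. Under fluoxetine the WT mice had 117.2, 191.1 and 218.7 and the HT mice 225.1, 245.1 and 303.1. Under fluoxetine every one of the 10 HT mice was therefore above every one of the 10 WT mice, while the groups overlapped under vehicle and lithium. How many of all genes split in this way was not counted. Lithium gave 154.4, 191.1 and 234.9 in WT and 180.9, 230.7 and 337.1 in HT mice. Averaged over treatments Dpp4 was higher in HT by 0.45 (log2; SE 0.087, adjusted p = 0.00305 in limma), a 1.37-fold difference, and 27 of 30 HT mice exceeded the median of all WT mice.

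Fap, a surface protease with the same kind of prolyl peptidase activity, was the scarcest of the 9 genes per library. WT mice under vehicle had 57.9, 66.7 and 99.9 normalised reads (lowest, median, highest of 10), and HT mice 65.2, 108.2 and 121.7. In vehicle males the 5 WT values were 95.7, 90.4, 59.3, 72.2 and 99.9, and the 5 HT values 109.3, 119.2, 121.7, 107.0 and 118.1, without overlap. In that stratum 23.3% of all genes had an unadjusted p below 0.05 by limma. Neither such splits nor the counts of HT mice above WT mice, here and for the other genes, were taken over all genes. Under fluoxetine WT had 56.7, 73.0 and 81.7 and HT 56.9, 87.3 and 102.1, with 7 HT mice above all WT mice. Under lithium WT had 51.4, 58.3 and 72.0 and HT 58.7, 83.4 and 97.7, and 10 of 10 HT mice exceeded the WT median. The averaged difference was 0.36 (SE 0.060, adjusted p = 0.000425), or 1.29-fold, which ranked 6th by p among all genes tested.

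Ifih1, which starts the interferon response to long double-stranded RNA, differed by a similar amount under each treatment. Vehicle mice had 104.5, 122.5 and 161.1 normalised reads if WT, against 116.8, 141.3 and 180.3 if HT (lowest, median, highest of 10). Among the fluoxetine mice the WT values were 104.7, 111.6 and 146.6 and the HT values 116.1, 128.6 and 151.1, where 10 of 10 HT mice exceeded the WT median. Lithium mice had 95.7, 109.9 and 133.1 (WT) and 102.0, 126.2 and 164.2 (HT). The groups overlapped under all 3 treatments. Averaged, Ifih1 was higher by 0.21 (SE 0.039, adjusted p = 0.00235), or 1.16-fold.

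Slc4a10, which brings bicarbonate into neurons and buffers their pH, had the smallest difference of the 4. WT and HT medians were 7122 and 7819 under vehicle, 7150 and 7436 under fluoxetine, and 6478 and 7360 under lithium (n = 10 each). The lithium values ran from 6037 to 6751 in WT and from 6200 to 8353 in HT mice, with 8 of 10 HT mice above all WT mice. In vehicle mice the ranges were 6088 to 8707 and 6373 to 8990 and overlapped, with 2 HT mice above all WT mice. The average difference was 0.12 (SE 0.023, adjusted p = 0.00256), or 1.09-fold.

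The other 5 genes did not pass. Psmd14 had 1673 ± 182 normalised reads in WT and 1777 ± 159 in HT mice (SD, n = 30 each), a difference of 0.09 (95% interval 0.03 to 0.15, adjusted p = 0.0949 in limma). Kcnh7 had 4415 ± 819 and 4756 ± 807, a difference of 0.11 (interval -0.01 to 0.23, adjusted p = 0.227). Psmd14 and Kcnh7 had their highest HT minus WT values under vehicle (0.15 and 0.25) and values near 0 under fluoxetine (-0.00034 and -0.03). Rbms1 had 574.2 ± 79.3 and 595.9 ± 65.3, Tank 696.8 ± 112.4 and 718.1 ± 108.3, and Gca 320.8 ± 43.2 and 331.8 ± 47.3. Their differences were 0.06, 0.05 and 0.05, with adjusted p of 0.154, 0.202 and 0.38.

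Head-to-head neighbours thus gave unlike values. The averaged difference of Ifih1 had a 95% interval of 0.13 to 0.29, and that of Gca, on the other side of the gap of 18029 bases, one of -0.02 to 0.12. Tank and Ifih1, both parts of the signalling that leads to type I interferon, lie on opposite sides of Tbr1. The interval of Tank was 0.0011 to 0.089, and the differences between the genes' values were not tested.

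Within each treatment taken alone, none of the 9 genes passed limma's test, in a background where few genes did: 0.0337% of genes under vehicle (0.0281% lower), 0.0112% under fluoxetine and 0.00562% under lithium. At an unadjusted p below 0.05 there were 6 of the 9 under vehicle, 6 under fluoxetine and 5 under lithium, against 33.2%, 2.95% and 8.37% of all genes. Dpp4, Fap, Ifih1 and Slc4a10 were among them under every treatment. The differences of Dpp4 were 0.56, 0.45 and 0.35 under vehicle, fluoxetine and lithium, and those of Fap 0.46, 0.22 and 0.41. Ifih1 gave 0.23, 0.19 and 0.21 and Slc4a10 0.11, 0.09 and 0.17. Under vehicle the adjusted p of Fap was 0.0629, that of Dpp4 0.0735, that of Ifih1 0.0781 and that of Slc4a10 0.0816.

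The absence of calls under vehicle rested on single libraries. Without HT female 1 there were 6 calls among the 9 genes, with 35.3% of all genes called. Leaving out HT male 2 also gave 6 (3030 genes in all), WT male 1 gave 6 (20.7%) and WT female 4 gave 5 (17.6%). With DESeq2 on the recovered reads Dpp4, Fap and Ifih1 passed under vehicle (5.01% of all genes), and with edgeR Fap did.

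**Figure D2:**
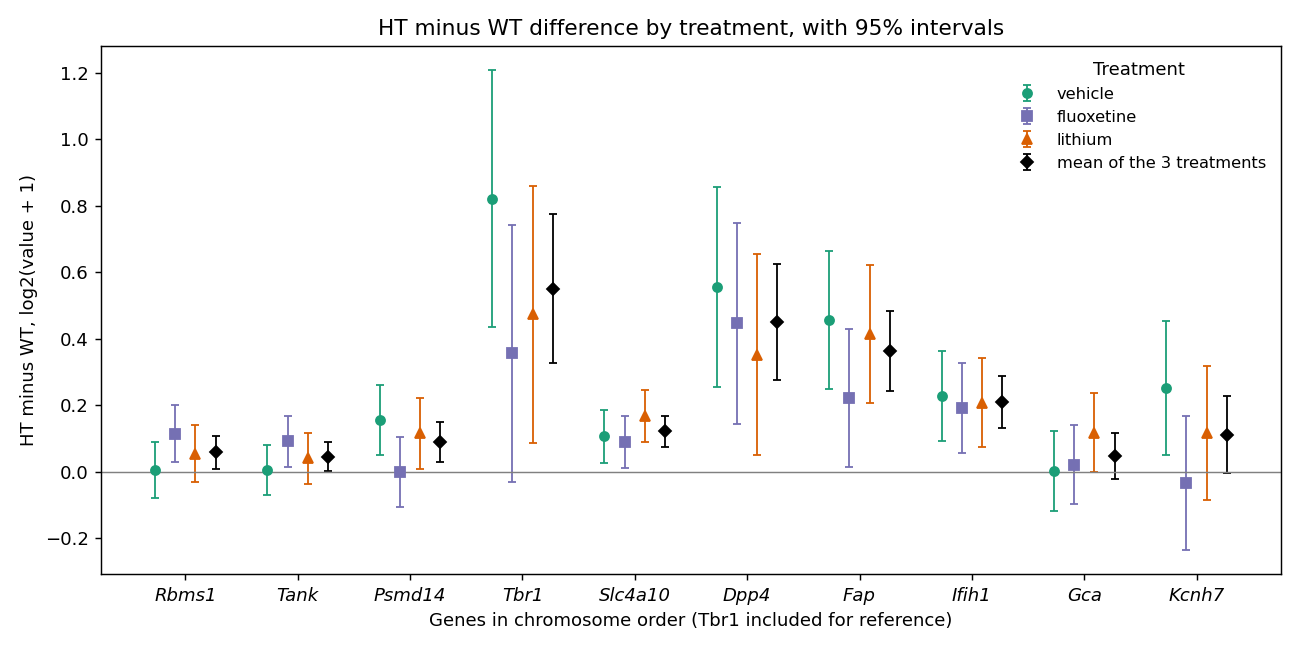
HT minus WT difference in log2(value + 1) (y axis) of the 9 genes and Tbr1 in chromosome order (x axis) for vehicle, fluoxetine, lithium and the mean of the 3, with 95% intervals. Dpp4, Fap, Ifih1 and Slc4a10 lie above 0 under all 3 treatments, with averages of 0.45, 0.36, 0.21 and 0.12, whereas Kcnh7 and Psmd14 are near 0 under fluoxetine.

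Each combination of treatment and sex sets 5 HT against 5 WT mice. The HT mean was higher in 48 of the 54 combinations of gene, treatment and sex. For Dpp4, Fap, Ifih1 and Slc4a10 it was higher in 6 of 6 strata, for Gca, Kcnh7, Rbms1 and Tank in 5, and for Psmd14 in 4. In 5 of the 54 the groups did not overlap: Dpp4 in vehicle males and in both sexes under fluoxetine, Fap in vehicle males and Ifih1 in fluoxetine females. Neither direction nor overlap was counted over all genes, so these counts have no share to be set against. At an unadjusted p below 0.05 there were 23.3% of all genes in vehicle males, 1.82% in fluoxetine females and 2.6% in fluoxetine males. In females alone the averaged differences of Dpp4, Fap, Ifih1 and Slc4a10 were 0.40, 0.36, 0.19 and 0.13, and in males alone 0.50, 0.37, 0.23 and 0.12. None of the 9 passed in either sex alone by limma, where 0.0619% of genes were called in females and 0.00562% in males. At an unadjusted p below 0.05 there were 4 of the 9 in females and 5 in males, against 15% and 7.7% of all genes. No gene of the table passed the test of a genotype by sex interaction in any treatment.

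Whether the HT minus WT difference itself changed with a drug was tested by the interaction of genotype and drug, and 0 of 17781 genes passed limma's test for either drug. Among the 9 neighbours, Kcnh7 (-0.29, 95% interval -0.57 to -0.0011) and Psmd14 (-0.16, interval -0.30 to -0.0059) had an unadjusted p below 0.05 for fluoxetine, both with adjusted p = 0.332. In that contrast 14.8% of all genes had one, and for lithium none of the 9 did. For Dpp4 the interaction was -0.11 with fluoxetine (interval -0.54 to 0.32) and -0.20 with lithium (interval -0.63 to 0.22). Differences of that size in response between treatments were not detectable with these groups. Both interactions share the vehicle libraries.

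Tbr1 itself had a difference of 0.55 averaged over treatments (SE 0.11, adjusted p = 0.00518 in limma), with 0.82, 0.36 and 0.47 under vehicle, fluoxetine and lithium. With the vehicle males left out it no longer passed (0.46, adjusted p = 0.0588), nor did it in females alone (0.54) or males alone (0.56). Over the other alternatives its adjusted p was at most 0.0205 where both sexes and all treatments were kept. The library of HT vehicle female 1 had 1166.9 normalised reads of Tbr1, 98.5 of Dpp4 and 2469.7 of Kcnh7, each the lowest of the HT mice. In that library Ifih1 stood at 116.8 and Slc4a10 at 6709.2, within the range of the other HT mice. The Ifih1 value was still the lowest of the 10 HT vehicle mice.

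Going outward from Tbr1, calls at the adjusted p threshold ended with Ifih1 on one side and were not seen on the other. On the side without calls, Psmd14, Rbms1 and Tank were higher in HT mice at an unadjusted p below 0.05 by limma. The 15 tested genes with a start site within 2 Mb of that of Tbr1 are the 9 neighbours and Wdsub1, Baz2b, March7, Cd302, Ly75 and Pla2r1. All 6 of the latter lie beyond Rbms1. The averaged difference of these 6 ran from -0.08 for Baz2b, a chromatin reader, to 0.04 for Ly75, an endocytic receptor of dendritic cells, and none was called. Thus 4 of 15 genes were called within 2 Mb (26.7%), 0 of 26 at 2 to 5 Mb, and 0 of 118 at 5 to 20 Mb. Farther along chromosome 2, 14 of 1209 were called (1.16%), and on the other chromosomes 196 of 16412. With all genes within 5 Mb taken as 1 class the count was 4 of 41 (9.76%). Unadjusted p below 0.05 was seen for 8 of 15, 8 of 26 and 32 of 118 genes in the first 3 classes, against 23.7% on the other chromosomes. The median difference was 0.047 within 2 Mb, 0.044 at 2 to 5 Mb and 0.0038 at 5 to 20 Mb. On the other chromosomes it was -0.0013. Within 2 Mb and at 2 to 5 Mb the medians were 0.045 and 0.155 under vehicle, 0.089 and 0.00098 under fluoxetine, and 0.109 and 0.04 under lithium.

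**Figure D3:**
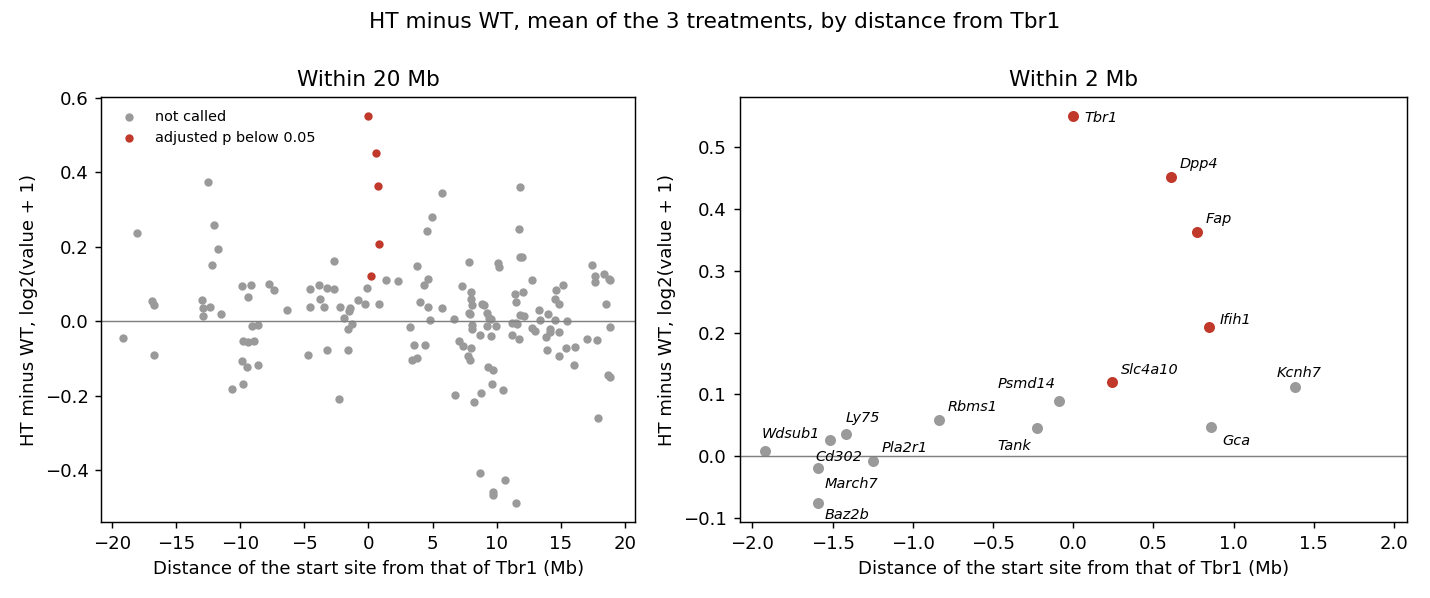
HT minus WT difference in log2(value + 1), averaged over treatments (y axis), against the distance of a gene's start site from that of Tbr1 in Mb (x axis), within 20 Mb on the left and 2 Mb on the right; red points passed the adjusted p threshold of 0.05. The red points are Tbr1, Slc4a10, Dpp4, Fap and Ifih1, all from 0 to 0.84 Mb on the plus side, and no gene from 0.86 to 20 Mb on either side is red.

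Transcripts of the olfactory bulb, which lies just in front of the prefrontal cortex, varied between libraries. All 7 bulb markers, among them Th and Tbx21, were above 0 in every library, and their mean log2 value was 10.01 ± 0.73 in WT and 8.52 ± 1.54 in HT mice given vehicle (SD, n = 10 each). Summed over the list, that is 5456 to 23729 normalised reads in WT and 364 to 23854 in HT mice. Fluoxetine groups had 5.63 ± 1.55 (WT) and 6.05 ± 1.57 (HT), and lithium groups 8.83 ± 1.28 (WT) and 7.71 ± 2.20 (HT). With the bulb mean as a covariate the same 4 genes passed and no other of the 9 did, and 0.354% of all genes were called. Their differences were then 0.37, 0.33, 0.22 and 0.11 in that order. With the vehicle males also left out, a combination added after the data had been seen, the 4 passed in a refit of the other libraries (Dpp4 0.34, adjusted p = 0.037 by limma, with 0.208% of all genes called). As a contrast within the fit of all 60 libraries, the same combination left 3 called and Dpp4 did not pass (0.34, adjusted p = 0.0782, with 0.169% of all genes called). Within single treatments the covariate again left 0 of the 9 called, with 0.00562%, 0.0225% (0.0169% higher) and 0.00562% of all genes under vehicle, fluoxetine and lithium. Kcnh7 moved from 0.11 to 0.04 and Psmd14 from 0.09 to 0.07.

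Markers of other cells that could carry these genes were compared as well, averaged over treatments. In that comparison 1.21% of all 17781 genes were called, so 0 calls in a short list is near the background. The 7 bulb markers also had 0 calls there, with a median difference of -0.73. A count of 0 therefore does not show that tissue makeup was alike. Fap and Dpp4 are known from fibroblasts, and the 10 meningeal fibroblast markers had 0 calls and a median difference of -0.06. Their summed level under vehicle ran from 6944 to 13195 normalised reads in WT and from 5747 to 9581 in HT mice. Ifih1 is read in microglia, and the 10 microglial markers had 0 calls and a median of -0.0069, with 8460 to 11040 in WT and 8853 to 12215 in HT mice under vehicle. No marker of these 2 lists was at 0 in any library. Of 9 layer 6 and subplate markers 1 was lower (Nxph4, a neurexophilin of subplate neurons, -0.76, adjusted p = 0.0485 by limma and 0.134 with the bulb covariate; median -0.09), and 0 of 6 upper-layer markers (median 0.14) and 0 of 5 excitatory neuron markers (median 0.13) passed. No marker passed among 12 of striatum (median 0.11), 6 of choroid plexus (0.04), 6 of astrocytes (-0.02) and 6 of oligodendrocytes (-0.04). In bulk tissue, fewer cells of a type and less RNA per cell cannot be told apart. With covariates for bulb, striatum, choroid plexus, meninges and layer 6 together, chosen after the data had been seen, Dpp4, Fap, Ifih1 and Slc4a10 passed at 0.30, 0.31, 0.23 and 0.12, and 0.326% of all genes were called.

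**Figure D4:**
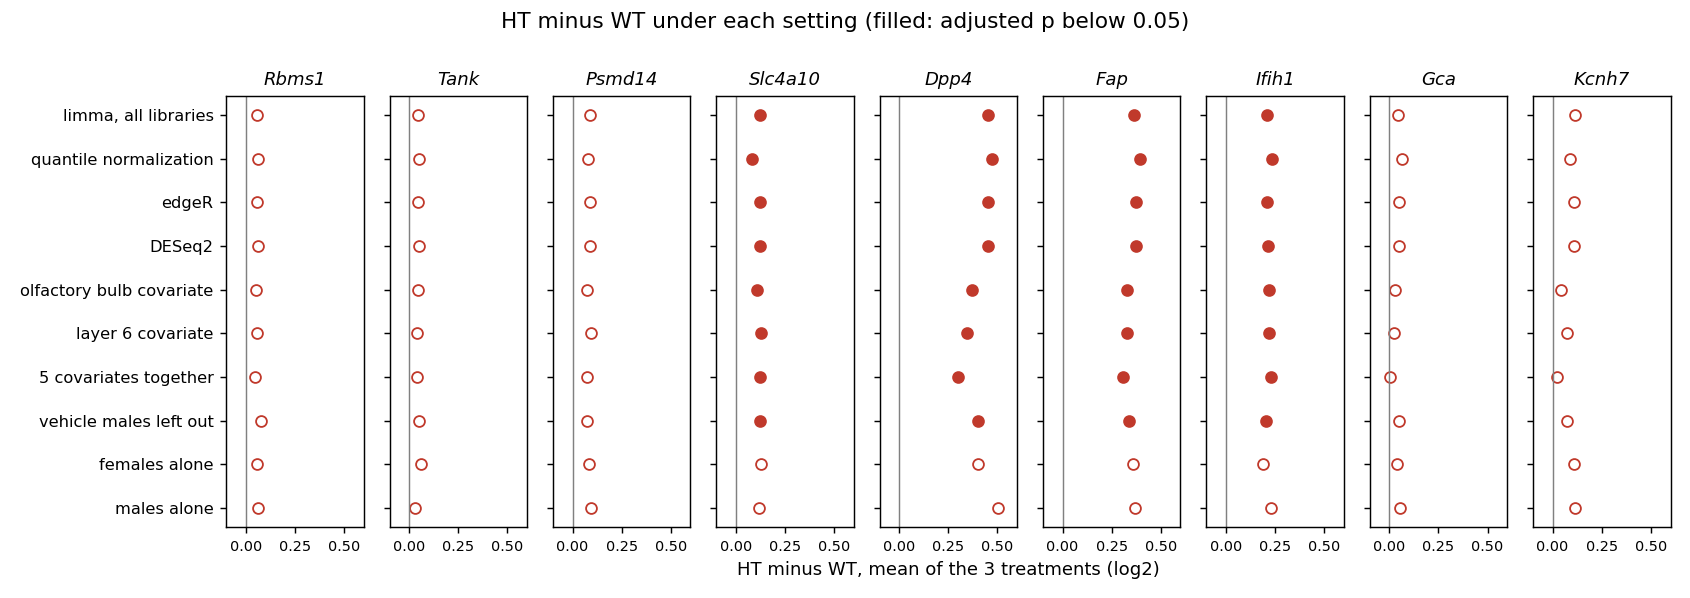
HT minus WT difference averaged over treatments (x axis, log2) for each of the 9 genes (panels) under 10 settings (rows); filled points passed the adjusted p threshold of 0.05. Slc4a10, Dpp4, Fap and Ifih1 are filled in 8 of the rows and open in females alone and males alone. There their differences are similar in size, some a little lower and some a little higher than with all libraries.

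Drug effects were read in females, since the vehicle males stood apart. Fluoxetine against vehicle called 3 of the 9 genes, all higher (Kcnh7 by 0.44, Gca by 0.17 and Slc4a10 by 0.15), in a background where 47.1% of all genes were called. With the bulb covariate none of the 9 passed and 0.00562% of genes did. Lithium against vehicle called none of the 9 by limma, with 0.883% of genes called. At an unadjusted p below 0.05 there was 1 of the 9 (Kcnh7, 0.22), against 24.4% of all genes. The olfactory bulb markers fell with fluoxetine, 7 of 7 with a median of -4.14, and their part in these differences was not tested beyond the covariate.

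By likeness around the group means over the 60 libraries (Pearson's r of log2 values, a description of libraries that share depth and tissue makeup), the 9 genes did not form one block. Among the 9, Kcnh7 followed Tbr1 most closely (r = 0.93, Spearman's rho 0.85), then Dpp4 (0.66 and 0.37), Psmd14 (0.56 and 0.63) and Slc4a10 (0.49 and 0.64). Fap (0.31 and 0.25), Gca (0.25 and 0.29), Rbms1 (0.17 and 0.08), Ifih1 (0.14 and 0.09) and Tank (-0.12 and -0.13) followed it less. The genes most like Tbr1 were Kif5c, Hspa12a and Arhgap44 (r = 0.99 each), none of them among the 9, and each followed it more closely than Kcnh7. Kcnh7 was also the one with the most negative r to the bulb list (-0.66), and Ifih1 had 0.13. The genes most like Dpp4 were Grhl1, Zbtb46 and Car10 (r = 0.88 each), those most like Fap were Alkbh6, Npy and Taf9b (0.64, 0.62 and 0.58), and those most like Ifih1 were Ppp1r10, Nf1 and Ncoa6 (0.50, 0.43 and 0.42). For Slc4a10 they were Clcn3, Atp6v1a and Ubr3 (0.82, 0.82 and 0.81), and for Kcnh7 Rgs7bp, Frrs1l and Dennd4a (0.98, 0.98 and 0.97). Psmd14 was most like Ddx1, Zc3h15 and Vdac1 (0.87, 0.83 and 0.82), Gca like Rps6kb1, Ppid and Far1 (0.65, 0.65 and 0.62), Rbms1 like Itpr2, Tjp1 and Nek1 (0.62, 0.59 and 0.58), and Tank like Eef1akmt2, Nxt2 and Tmem69 (0.58, 0.54 and 0.54).

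Relatives and pathway partners of the 9 genes elsewhere in the genome were mostly not called in the averaged comparison. There 1.21% of all genes were called, so counts of 0 in lists of this size are near the background. None of 9 prolyl peptidases related to Dpp4 and Fap passed (median 0.0098; Dpp8 had 0.06 and Prepl 0.09), nor did any of 7 bicarbonate transporters (median -0.04; Slc4a4 had -0.15). None of 32 proteasome subunits passed (median 0.02; Psmc5 had 0.05), none of 7 KCNH channels (median 0.03; Kcnh5 had 0.12, adjusted p = 0.0637 in limma), none of 6 penta-EF-hand proteins (median 0.04) and none of 4 RNA-binding relatives of Rbms1 (median -0.0047). At TBK1 and RIG-I-like receptor signalling, 2 of 22 genes passed. Azi2, an adaptor that binds TBK1 as Tank does, was higher by 0.06 (adjusted p of 0.05 after rounding by limma, 0.201 with the bulb covariate). Nfkbia, the inhibitor that holds NF-kB in the cytoplasm, was lower by 0.18 (adjusted p = 0.00815 by limma, 0.0366 with the bulb covariate). The interferon-side members with the next smallest p, Irf3 and Ikbke, had -0.12 and -0.18 and did not pass, and the list's median was -0.03.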

How the data were processed

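Prefrontal cortex RNA of 60 mice was made into stranded mRNA libraries, as the labels' protocols state. The authors deposited 1 signal value per gene and library, gene-level reads divided by a size factor, as the values themselves show: 100% were whole multiples of the value of 1 read at a tolerance of 1e-06. Per the submitters' processing notes the build was GRCm38 and the tools included DESeq2 1.19.11 and Salmon 0.11.2, run beside R 3.6.0, with no word on which step each did. Recovered totals ran from 23930164 to 36515331 reads per library (median 28721151), and 18077 of 18088 identifiers matched a GENCODE gene.

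The test used limma 3.58.1 (R 4.3.3) on log2(value + 1), with a mean-variance trend and 1 mean per group over all 60 libraries. It covered the 17781 genes that reached a value of 10 in 5 libraries or more (Benjamini-Hochberg within each contrast). A fold on this scale understates the change of low genes. The groups, taken from the sample titles, were compared as HT against WT in each treatment and averaged, with interactions and drug effects in females. Count tests of the recovered reads (edgeR 4.0.16, DESeq2 1.42.0), pseudocounts of 0.5 and 5, no filter or a mean of 100, a replicate block, quantile normalization, library weights, covariates from marker lists and leaving out each library were alternatives. Leaving out the vehicle males, leaving them out with the bulb covariate, each sex alone, and the layer 6 and 5-list covariates were added after the data had been seen. The fit was also run on simulated data in which each gene varied on its own. The simulation lacked the tissue makeup that varies between these libraries, so it does not gauge false calls here. The lowest chi-square per degree of freedom among 120 pairs of libraries of a group was 3.11, so no library was taken as deposited in duplicate.

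The 9 genes and all lists were chosen with earlier results of these data known. Named genes are the 9, Tbr1, all other genes of the table within 2 Mb, and genes at 2 to 5 Mb if called in the averaged comparison (there were none). Also named are the 3 most alike genes per member and for Tbr1 (mean of at least 50, no predicted genes). From each functional list up to 4 genes with the smallest p are named. Itgb6 and Gcg, protein-coding genes annotated within 2 Mb, are not among the genes of the deposited table and were not analysed here. Gcg lies between Dpp4 and Fap. Promoter sequences are from RefSeq (GRCm38.p6). Cell markers were the lists named in the text, with striatum and choroid plexus lists as covariates.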

Additional observations from a re-analysis of the deposited data

Results flagged for a closer look

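Among 108 combinations of gene and group, 7 held a library farther from the other 4 than Dixon's rule allows at 5% chance, so about 1 in 20 would be flagged by chance. HT fluoxetine male 2 was high for 3 of the genes, with 8313 normalised reads of Slc4a10 (others 7060 to 7314), 398.5 of Gca (others 285.7 to 306.6) and 5434 of Kcnh7 (others 4374 to 4611). Dpp4 was low in HT vehicle female 1 at 98.5 (others 228.4 to 280.7) and in WT vehicle male 4 at 88.6 (others 203.7 to 247.6). These libraries had the highest mean log2 value of the bulb markers in their genotype, 10.95 and 11.06. Their mean log2 value of the excitatory neuron markers was the lowest in their genotype, 11.16 and 10.08. Whether tissue makeup accounts for the low values was not tested. Ifih1 was high in HT fluoxetine female 2 at 151.1 (others 120.2 to 129.1), and Rbms1 in WT lithium male 1 at 559.1 (others 532.2 to 539.8).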

How the results depend on the processing

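Averaged over treatments, 4 genes were called under the alternatives kept to both sexes, except for 3 with a mean of at least 100 (which leaves Fap out) and 6 with library weights (24.1% of all genes called); with the vehicle males left out and the bulb covariate it was 4 in a refit and 3, without Dpp4, as a contrast in the fit of all libraries. Leaving out each of 60 libraries gave 4 to 5, while the genes called in all ran from 110 to 2861. Females alone and males alone gave 0. Under vehicle the count of 0 became 1 with quantile normalization (0.0675% of all genes), 6 with library weights (39.3%), 1 with edgeR (0.0506%) and 3 with DESeq2 (5.01%). Without single libraries it was 0 to 6, with 1 to 6275 genes called in all. Under fluoxetine it became 1 with only the compared groups in the fit (0.163% of all genes) and 1 with library weights (0.146%; Dpp4 both times). Under lithium it became 1 with library weights (0.0281% of all genes). Without single libraries it was 0 to 1 (Slc4a10, without HT male 1), with 1 to 5 genes called in all. The fluoxetine interaction had 3 with library weights (Kcnh7, Psmd14 and Rbms1), where 28.9% of all genes were called. Fluoxetine in females fell from 3 to 0 with the bulb covariate, with it and the replicate block, and with the bulb covariates on 2 scales. It also fell to 0 with striatum and choroid plexus covariates, and with choroid plexus and meninges covariates. Without single libraries it was 2 to 4, with 6388 to 9022 genes called in all. The cause of these changes was not tested. With the replicate block the counts were 0, 0, 0 and 4 under vehicle, fluoxetine, lithium and averaged. They were 3 for fluoxetine and 0 for lithium in females, all as without the block. Deviations of same-numbered HT and WT libraries had a mean correlation of 0.00239 (from -0.391 to 0.457). For different numbers it was -0.000188 (from -0.543 to 0.58). Whether equal numbers mark litters or shared handling cannot be told from these values. In the averaged comparison Psmd14 passed without HT vehicle female 1 (adjusted p = 0.031 by limma), HT lithium male 1 or WT lithium female 5. These are among the refits that called 110 to 2861 genes in all. Fap, with 51.4 to 121.7 normalised reads per library, had the fewest reads of the 9.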
